A study of Mus musculus with 6 samples.

Results

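Semaphorins, ephrins, slits and netrins are the 4 classical families of axon guidance cues, and plexins, neuropilins, Eph receptors and Robo proteins are receptors for them. The open chromatin regions assigned to these genes were followed in mouse definitive endoderm after removal of the transcription factor OTX2. Members were all ATAC-seq peaks whose assigned gene has a name starting with Sema, Plxn, Epha, Ephb, Efna, Efnb, Slit, Robo, Unc5, Ntn or Nrp followed by a digit, or by a letter and a digit, with the Slitrk genes left out. The rule found 364 of the 70494 peaks of the table, at 68 genes. It also caught 8 peaks by name only: 2 at Unc50, which encodes a Golgi protein and no netrin receptor, and 6 at Plxna4os1, Plxna4os2 and Plxna4os3, transcripts antisense to a plexin gene. By the authors' annotation, peaks at each of these antisense transcripts lie in introns of Plxna4 itself. All 8 peaks are among the 364 but in none of the families counted below, plexins included. The netrin receptor genes Unc5a to Unc5d (23 peaks) fell outside the rule and are counted below with other genes of the pathway.

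The cells were made from epiblast stem cells of the line 7H OTX2-dTAG-EGFP, of a BL6/129 hybrid background, in which OTX2 carries a degradation tag and EGFP. In both groups the cells received 40 ng/ml Activin A with 3 uM CHIR for 16 h and then 100 ng/ml Activin A with 100 nM LDN for 24 h. From the primitive streak stage, 3 libraries had DMSO, the solvent, and 3 had dTAG13, the small molecule that sends the tagged protein to degradation, for 24 h. All 6 libraries thus come from the tagged line, and no untagged line given dTAG13 is among them. Each library was made from 50000 live sorted cells by ATAC-seq, which marks open chromatin by transposase insertion. The labels name 1 line, and per the design text the 3 libraries in each group are technical replicates. Each p-value therefore measures the spread between repeated libraries, which may not include that between cultures. The level of OTX2 protein was not measured in these data, and peaks at Otx2 itself were not analysed here.

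Guidance cues tell migrating cells and growing axons where to go. Class 3 semaphorins are secreted and bind neuropilins, which signal through plexins; most other semaphorins are bound to the membrane and bind plexins directly. Ephrins and Eph receptors both sit in the membrane and signal at cell contacts in both directions, slits repel cells through Robo receptors, and netrins attract or repel through DCC and UNC5 receptors. The same families act outside the nervous system in gastrulation movements, in tissue boundaries and in vessels. OTX2 is a homeodomain factor of the anterior primitive streak, anterior endoderm and forebrain that binds sequences with the core GGATTA.

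The values of each library were recovered from the deposited means: a mean over libraries of whole reads divided by size factors allows few combinations of reads, and the combination was accepted when its fitted fold change equalled the deposited one. All 364 members were recovered, with a largest difference of 7.9e-05 on the log2 scale, and with means shifted as a control 0 of 284 were. The libraries carry no replicate number and are called a, b and c by falling size factor: 1.35, 1.31 and 1.09 for DMSO and 0.961, 0.823 and 0.780 for dTAG13. Size factors of DMSO libraries were thus larger, by 1.46 times on average. Total reads per library were not seen, so sequencing depth and the share of reads in peaks are not separated. Neither can be told apart from treatment. Member peaks held 6911, 6734 and 5675 reads with DMSO and 4247, 3699 and 3630 with dTAG13. Of the values above 0, 74.6% were even, and reads without molecular identifiers are not independent molecules. The intervals used below treat each read as independent, so they can be too narrow even for counting error. They also leave out the spread between libraries. Where a group has 0 reads, a fold at the floor divides the mean of the other group by 3 reads per library. That mean is taken as exact, so the fold is no strict bound. All 11 definitive endoderm markers checked, among them Sox17, Foxa2 and Gata6, had a promoter peak, with a median mean normalized count of 39.1 for the strongest one. The same value was 20.4 for 4 of 5 epiblast markers, 16.5 for 2 of 5 mesoderm markers and 18.8 for 6 of 6 neural markers, whose promoters can be open without expression.

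Sequences of 10 called peaks are shown first, each 100 bases on either side of the peak midpoint, on the plus strand of mm10 (GRCm38.p6). Capitals mark GGATTA or its complement TAATCC in peaks lower in dTAG13. The 7 lower peaks are those with the smallest p at Robo1 (chr16:72636061-72636261), Efna5 (chr17:62752619-62752819), Ephb2 (chr4:136761730-136761930), Sema6d (chr2:124639070-124639270), Ntn1 (chr11:68373357-68373557), Robo3 (chr9:37435068-37435268) and Plxna2 (chr1:194782541-194782741), with that of Slit1 (chr19:41657456-41657656) added for its match outside a short peak. The letters are present at Efna5, Ntn1, Robo3, Plxna2 and Slit1 and absent from the windows at Robo1, Ephb2 and Sema6d. This set overstates their share, since 8 of all 21 lower members hold them. Weak calls are among those shown: Plxna2 and Sema3e held in 1 and Slit1 in 2 of 6 fits that left out a library.
Robo1: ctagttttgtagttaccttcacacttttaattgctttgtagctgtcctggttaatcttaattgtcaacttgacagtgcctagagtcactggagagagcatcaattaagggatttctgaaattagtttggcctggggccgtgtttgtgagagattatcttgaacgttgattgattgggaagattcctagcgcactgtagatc
Efna5: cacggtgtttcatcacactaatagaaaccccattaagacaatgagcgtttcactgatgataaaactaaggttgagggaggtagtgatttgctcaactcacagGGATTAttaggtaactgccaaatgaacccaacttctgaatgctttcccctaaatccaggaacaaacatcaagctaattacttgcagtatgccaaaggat
Ephb2: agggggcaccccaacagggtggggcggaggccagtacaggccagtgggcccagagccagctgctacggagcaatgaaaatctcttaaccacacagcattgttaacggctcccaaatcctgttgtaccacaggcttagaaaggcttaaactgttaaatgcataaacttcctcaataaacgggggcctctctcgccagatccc
Sema6d: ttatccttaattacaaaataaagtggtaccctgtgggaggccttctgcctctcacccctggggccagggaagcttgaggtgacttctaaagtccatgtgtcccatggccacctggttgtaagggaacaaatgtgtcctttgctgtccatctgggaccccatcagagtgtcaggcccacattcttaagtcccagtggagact
Ntn1: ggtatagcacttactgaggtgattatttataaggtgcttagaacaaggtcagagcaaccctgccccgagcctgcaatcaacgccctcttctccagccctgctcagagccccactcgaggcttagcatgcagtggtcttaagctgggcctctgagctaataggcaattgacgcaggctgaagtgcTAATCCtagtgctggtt
Robo3: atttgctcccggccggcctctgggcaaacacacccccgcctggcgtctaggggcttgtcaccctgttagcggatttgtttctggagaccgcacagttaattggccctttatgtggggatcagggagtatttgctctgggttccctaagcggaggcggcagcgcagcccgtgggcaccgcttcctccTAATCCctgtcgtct
Plxna2: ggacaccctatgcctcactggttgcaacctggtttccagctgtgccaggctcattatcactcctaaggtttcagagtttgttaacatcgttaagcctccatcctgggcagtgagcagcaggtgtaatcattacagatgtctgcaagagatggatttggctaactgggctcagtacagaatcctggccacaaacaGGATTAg
Slit1: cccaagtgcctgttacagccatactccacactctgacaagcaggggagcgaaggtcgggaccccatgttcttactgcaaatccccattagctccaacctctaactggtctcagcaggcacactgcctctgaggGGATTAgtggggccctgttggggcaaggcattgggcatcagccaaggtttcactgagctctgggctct
Both peaks higher in dTAG13 lack the OTX letters, which 1.28% of all higher peaks hold. In these the capitals mark the AP1 letters TGANTCA, found 2 times at Sema3e (chr5:13974760-13974960), and the TEAD letters GGAATG, found 1 time at Epha1 (chr6:42372799-42372999). Of all higher peaks 8.56% hold the AP1 letters and 22.7% the TEAD letters, beside 6.07% and 11.6% of all peaks. SOX letters (ACAATG or ACAAAG) are in 1 of the 2 peaks and are not marked.
Sema3e: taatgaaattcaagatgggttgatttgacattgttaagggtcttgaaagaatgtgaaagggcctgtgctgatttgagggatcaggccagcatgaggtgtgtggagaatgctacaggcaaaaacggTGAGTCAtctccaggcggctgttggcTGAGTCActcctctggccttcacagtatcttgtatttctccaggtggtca
Epha1: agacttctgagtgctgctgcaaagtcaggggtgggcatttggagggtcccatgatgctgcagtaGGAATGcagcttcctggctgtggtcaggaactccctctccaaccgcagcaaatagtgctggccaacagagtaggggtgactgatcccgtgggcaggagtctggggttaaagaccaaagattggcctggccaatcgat

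Chromatin at axon guidance genes was lower in dTAG13 at 21 peaks of 12 genes and higher at 2 peaks of 2 genes, by the authors' deposited table at an adjusted p under 0.05. The 21 lower peaks are 5.80% of the 362 members with an adjusted p, where 3.79% of all peaks were lower. The 2 higher peaks are 0.552% of members, where 1.47% of all peaks were higher, and in either direction 5.26% of all peaks were called. These differences between members and all peaks were not tested. The median log2 fold change of the 364 members in the authors' deposited table was -0.25, beside -0.18 for all peaks, and 61.0% of members against 58.2% of all peaks had a negative value. The balance of calls moved with the centring: with the median of all peaks set to 0, 17 members were lower and 9 higher, and with the median of each of 10 classes of GC content set to 0, 13 were lower and 7 higher. Over the whole table the split moved likewise, from 2622 lower and 1016 higher as deposited to 2056 and 1958, and to 1379 and 2258.

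**Figure D1:**
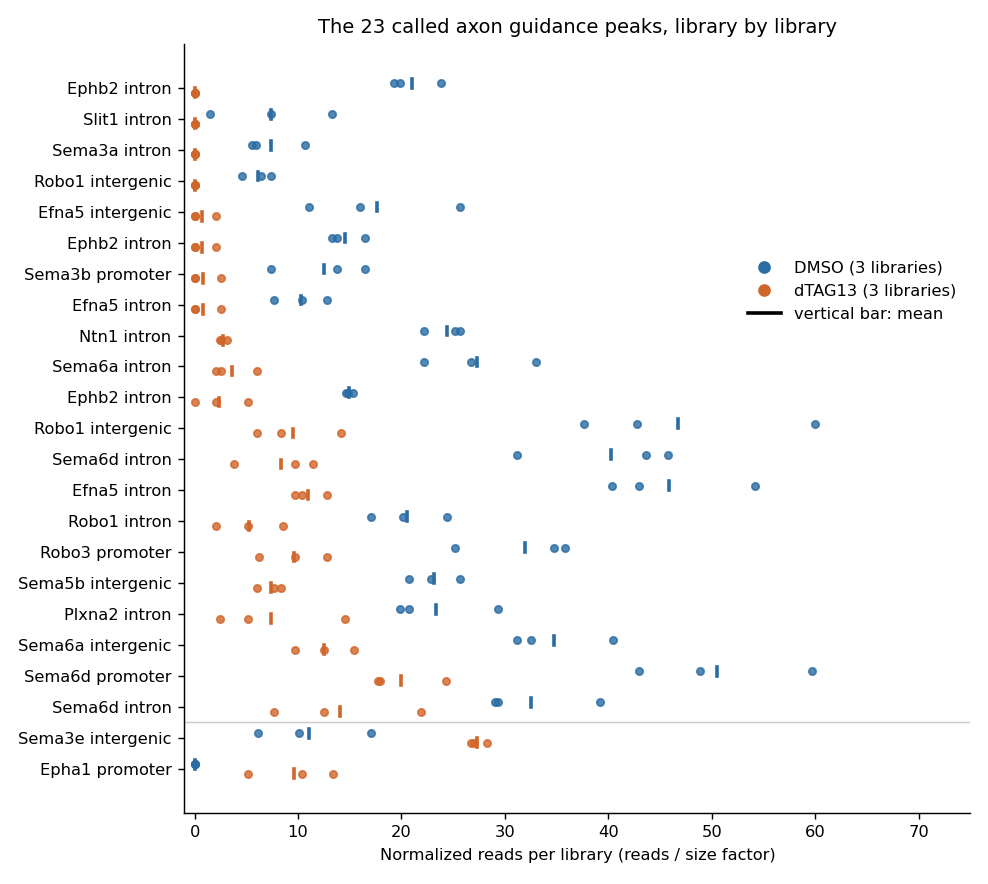
Normalized reads (recovered reads divided by the size factor, x axis) of the 23 called peaks in each of the 3 DMSO (blue) and 3 dTAG13 (orange) libraries; vertical bars are group means, and the grey line parts the 21 lower from the 2 higher peaks. No called peak has overlapping groups, which the calls select for. At 0 in every dTAG13 library lie 4 lower peaks, while the Epha1 peak lies at 0 in every DMSO library.

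In all 21 lower peaks every DMSO library was above every dTAG13 library after normalization, and in both higher peaks the reverse held. The calls select for such separation, so this is a description and adds no support. Uncalled members can separate too, and no such count was made over all peaks. At 11 of the 21 lower peaks the dTAG13 libraries averaged at most 3 reads, so there the size of the change is poorly bounded. In the list of peaks called on the pooled libraries of each group, 18 of the 21 lower peaks (85.7%) were present with DMSO alone and 3 with both, beside 86.9% with DMSO alone among all lower peaks of the table.

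**Figure D2:**
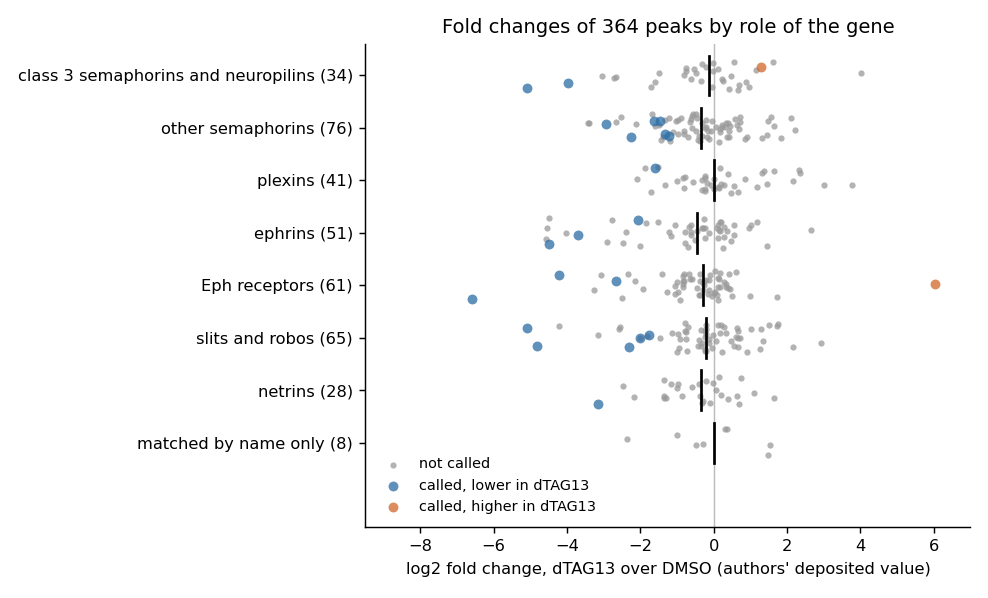
Deposited log2 fold change of dTAG13 over DMSO (x axis) for each of the 364 peaks, by role of the assigned gene with the number of peaks in brackets; black bars are medians, blue and orange points the called lower and higher peaks. Lower calls are spread over 7 groups, with medians between -0.47 for ephrins and 0.02 for plexins.

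Slits and Robo receptors held 5 of the 21 lower peaks among 65 peaks, with no higher one and a median log2 fold change of -0.21. Robo1, a receptor for slits, held 3 of them. The strongest was an intergenic peak by the authors' annotation (chr16:72635964-72636358), 27.0 kb upstream of the nearest Robo1 start site and inside the longest Robo1 transcript of GENCODE. It had 81, 56 and 41 reads in the DMSO libraries a, b and c and 8, 5 and 11 in the dTAG13 libraries, or 46.8 ± 11.7 against 9.50 ± 4.15 normalized reads (SD, n = 3 each). Its log2 fold change in the authors' deposited table was -2.32 (SE 0.41), a fold of 4.99, with an adjusted p of 2.34e-05, the smallest of all members. A Robo1 peak in intron 1 of 28 (chr16:72699199-72699499) had 23, 32 and 22 reads with DMSO and 2, 7 and 4 with dTAG13 (by the authors' deposited table -2.0 on the log2 scale, SE 0.58, with 0.0200 as adjusted p). That call ended with GC classes centred (-1.09, adjusted p 0.272) and held in 4 of 6 fits that left out a library. The third Robo1 peak (chr16:72545140-72545278) was weak, with 10, 6 and 7 reads against 0 in all 3 dTAG13 libraries. With 3 reads per library taken as the floor, its DMSO mean was 1.73-fold above the floor. Its call also ended with GC classes centred (adjusted p 0.0965) and held in 2 of 6 such fits.

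At an internal Robo1 start site, about 355 kb into the gene from its outermost start, the values had the other sign. None of the 3 Robo1 promoter peaks was called, and all had positive values: the central one (chr16:72663069-72663225) averaged 13.8 ± 3.63 normalized reads with DMSO and 27.7 ± 3.26 with dTAG13. The authors' deposited table gave it 1.0 on the log2 scale (SE 0.39) and an adjusted p of 0.107. Of the 21 Robo1 peaks, 12 had negative and 9 positive fold changes. At Robo3, a Robo family member with a role in midline crossing, a promoter peak 1.92 kb upstream of the start (chr9:37435040-37435295) had 47, 33 and 39 reads with DMSO and 6, 8 and 10 with dTAG13. The authors' deposited table put it at -1.75 (log2, SE 0.44) with an adjusted p of 0.00536, and the peak holds 2 OTX matches, 1 of them in the window shown. A stronger Robo3 promoter peak (chr9:37420710-37421013), the highest of the slit and Robo group, was not called: 44.9 ± 6.78 against 54.4 ± 10.7 normalized reads (SD, n = 3 each).

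Among the slit ligands a single short peak in intron 4 of 35 of Slit1 (chr19:41657525-41657587) was called. Its reads were 18, 2 and 8 with DMSO and 0 in every dTAG13 library, with a DMSO mean 2.09-fold above the floor. DMSO library b, with 2 reads, itself lay under that floor. The DMSO libraries themselves spread widely here, and the call held in only 2 of 6 fits that left out a library. Slit1 had 16 peaks in all, 11 with negative values, and its strongest (chr19:41666776-41667127) had a log2 fold change of -0.14 in the authors' deposited table. Slit3 had no called peak among 13, although 11 were negative, with a median of -0.69 on the log2 scale. In the DMSO peak list alone were 11 of the 13, beside 40.1% of all peaks. No peak of Slit2, Robo2 or Robo4 (3, 4 and 2 peaks) was called.

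Ephrins had 3 lower peaks among the 49 of 51 with an adjusted p, all at Efna5, which encodes a GPI-anchored ephrin-A ligand. The largest, 596 bases in intron 1 of 4 (chr17:62752421-62753016), had 58, 71 and 44 reads with DMSO and 10, 8 and 10 with dTAG13, or 45.8 ± 7.35 against 11 ± 1.63 normalized reads. In the authors' deposited table it had a log2 fold change of -2.07 (SE 0.38), a fold of 4.20, and an adjusted p of 6.07e-05. With GC classes centred these were -1.16 and 0.0483. This peak holds 2 OTX matches; in the window shown the letters GGATTA run into the reversed control letters ATTAGG, so both motifs are counted there. An intergenic Efna5 peak 60.3 kb upstream of the gene start (chr17:62941548-62941726) had 15, 21 and 28 reads against 2, 0 and 0, a ratio of 21.9 with a counting interval of 5.81 to 184, and with GC classes centred its adjusted p was 0.0411. A second intron 1 peak (chr17:62863246-62863380) had 14, 10 and 14 reads against 0, 0 and 2, a ratio of 13.0 (3.36 to 111). By the authors' deposited table its adjusted p was 0.0460, and the call held in 2 of 6 fits without a library and ended with the median of all peaks set to 0 (0.0572) and with GC classes centred (0.110).

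Most Efna5 peaks had less signal in dTAG13, called or not. Of its 22 peaks, 18 had negative values, with a median log2 fold change of -1.11, and 16 (72.7%) were present in the DMSO peak list alone, beside 40.1% of all peaks. In the other 7 ephrin genes no peak was called. The strongest ephrin peak, the promoter of Efnb2 (chr8:8661110-8661559), had 58.5 ± 5.03 normalized reads with DMSO and 66.1 ± 6.34 with dTAG13, with a log2 fold change of 0.18 (SE 0.22) in the authors' deposited table. EFNB2 is a membrane-spanning ephrin known from artery and endoderm development. Efnb1 had 14 peaks, 9 with negative and 5 with positive values, and none was called.

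Eph receptors had 3 lower peaks and 1 higher peak among 61. All the lower ones were at Ephb2, a receptor for B-class ephrins, and all were intronic. The intron 3 of 15 peak (chr4:136761693-136761966) had 26 reads in each DMSO library and 0 in each dTAG13 library, with a DMSO mean 5.93-fold above the floor. The fitted log2 value in the authors' deposited table, -6.60 (SE 1.26, adjusted p 1.12e-04), depends on that 0 and is no bound either. An intron 1 peak (chr4:136790695-136790864) had 18 reads in each DMSO library and 2, 0 and 0 with dTAG13, a ratio of 18.5 (4.87 to 156). A further intron 3 peak (chr4:136738269-136738525) had 20, 20 and 16 reads against 2, 0 and 4. The DMSO libraries were tight at the third peak, 14.9 ± 0.308 normalized reads, and the dTAG13 libraries ran at 2.40 ± 2.58. Of the 15 Ephb2 peaks, 14 had negative values, beside 58.2% of all peaks. In the DMSO list alone were 13 (86.7%), beside 40.1% of all peaks. Among all peaks of the table in the DMSO list alone, 94.2% were negative. The Ephb2 promoter peak (chr4:136835955-136836027) had 6.54 ± 1.69 normalized reads with DMSO and 7.14 ± 4.03 with dTAG13.

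The higher Eph peak lay in the promoter of Epha1 (chr6:42372862-42372935), 74 bases long and 0.336 kb from a start site. It had 0 reads in every DMSO library and 10, 11 and 4 with dTAG13, with a dTAG13 mean 3.98-fold above the floor. By the authors' deposited table its adjusted p was 0.00229, it was found in the dTAG13 peak list alone, and the call held in all 6 fits without a library. The other Epha1 promoter peak was not called, with a log2 fold change of 0.45 in the authors' deposited table. The strongest peak of all members, at the promoter of Epha7 (chr4:28812843-28813241), had 76.8 ± 21.6 normalized reads with DMSO and 82.3 ± 22.1 with dTAG13.

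**Figure D3:**
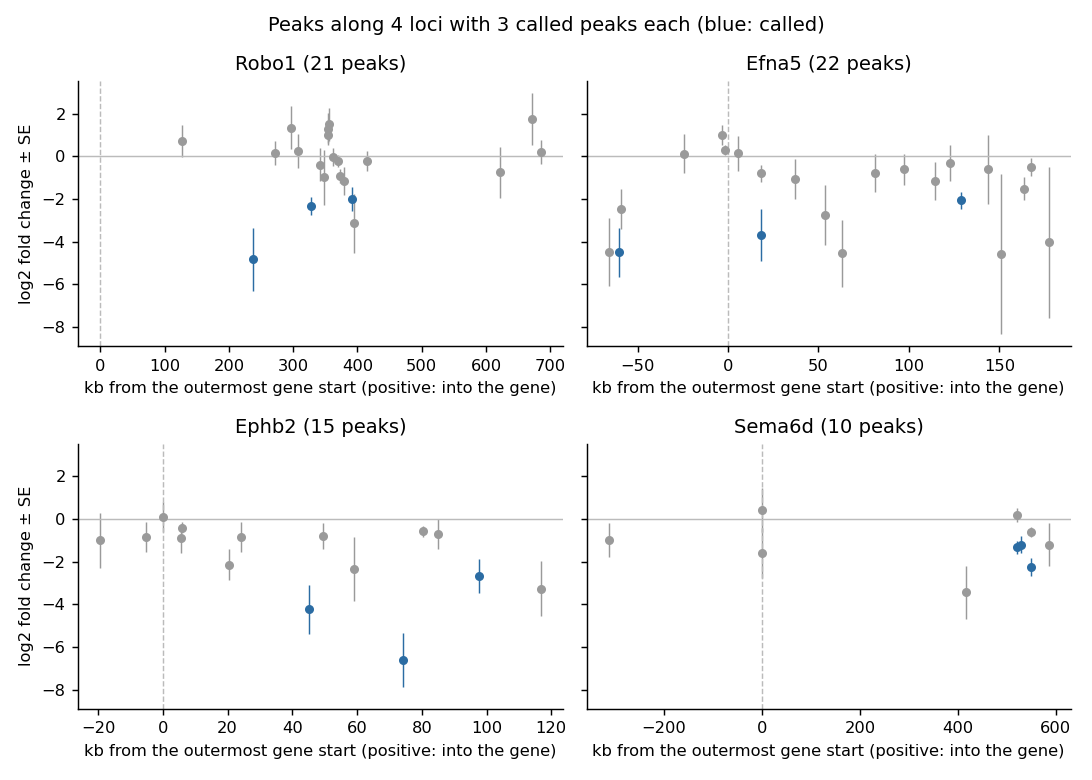
Log2 fold change ± SE from the authors' deposited table (y axis) of every peak assigned to Robo1, Efna5, Ephb2 and Sema6d against the distance in kb from the outermost GENCODE start of the gene, positive into the gene; blue points are called. The 12 called peaks lie away from the outermost start, from 60.3 kb upstream at Efna5 to 549.2 kb inside at Sema6d.

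Semaphorins other than class 3 had 6 lower peaks among 76 and no higher one, with a median log2 fold change of -0.35. Sema6d, a transmembrane semaphorin that binds plexin A1, held 3. Its intron 5 of 20 peak (chr2:124638997-124639343) had 59, 60 and 34 reads with DMSO and 11, 8 and 3 with dTAG13, or 40.2 ± 7.88 against 8.34 ± 3.98 normalized reads. The authors' deposited table gave this intronic peak -2.25 on the log2 scale (SE 0.43, adjusted p 1.26e-04). Its promoter peak (chr2:124610312-124610647), 0.093 kb upstream of an internal start site, had 58, 64 and 65 reads against 17, 20 and 14. The authors' deposited table gave that promoter a log2 fold change of -1.33 (SE 0.32), a fold of 2.52, and an adjusted p of 0.00340. It was the strongest called promoter, and the promoter peak next to it (chr2:124609766-124610171) was not called, at 27.1 ± 5.50 against 30.3 ± 3.04 normalized reads. The third Sema6d peak (chr2:124618458-124618779) had 53, 38 and 32 reads against 12, 18 and 6. By the authors' deposited table its adjusted p was 0.0474, and its call held in 1 of 6 fits without a library and ended with the median of all peaks set to 0 (0.0969) and with GC classes centred (0.416).

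Sema6a, a transmembrane semaphorin for plexins A2 and A4, had 2 lower peaks on chromosome 18. The first, in intron 1 of 18, had 30, 35 and 36 reads with DMSO and 2, 5 and 2 with dTAG13, and holds 2 OTX matches. For this peak the authors' deposited table gave -2.95 on the log2 scale (SE 0.61, adjusted p 4.09e-04), and with GC classes centred the values were -2.04 and 0.0253. The second, 115 kb upstream of Sema6a, had 44, 53 and 34 reads against 12, 8 and 12. Its call ended with GC classes centred, at -0.57 on the log2 scale (adjusted p 0.438). Its nearest GENCODE start site belongs to AC141639.3, so its assignment to Sema6a is by the authors' gene column. The Sema6a promoter, the strongest peak of the group, had 60.5 ± 6.58 normalized reads with DMSO and 77.1 ± 16.4 with dTAG13 and was not called. Sema5b had a lower intergenic peak 27.9 kb from a start site (chr16:35690201-35690463), with 28, 30 and 28 reads against 8, 5 and 6, and by the authors' deposited table its adjusted p was 0.0269. The Sema5b call held in 2 of 6 fits without a library and ended with the median of all peaks set to 0 (adjusted p 0.0527) and with GC classes centred (0.0951).

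Class 3 semaphorins and neuropilins together had 34 peaks, 2 lower and 1 higher. An intron 3 of 8 peak of Sema3a (chr5:13320308-13320433) had 8, 14 and 6 reads with DMSO and 0 in every dTAG13 library. Its DMSO mean was 2.08-fold above the floor. The adjusted p was 0.0165 by the authors' deposited table and 0.0600 with GC classes centred. The Sema3a call held in 4 of 6 fits without a library. A promoter peak of Sema3b (chr9:107607724-107607914) had 10, 18 and 18 reads against 0, 0 and 2, a ratio of 15.7 (4.1 to 134). The higher peak lay 50.4 kb upstream of Sema3e (chr5:13974745-13974974), the semaphorin that binds plexin D1 without a neuropilin. It had 23, 8 and 11 reads with DMSO and 26, 22 and 22 with dTAG13, or 11.1 ± 5.52 against 27.3 ± 0.784 normalized reads. The authors' deposited table gave it 1.3 on the log2 scale (SE 0.43) with 0.0481 after adjustment, and its call held in 1 of 6 fits, the one without DMSO library a, at 1.77. It ended with the median of peaks in both lists set to 0 (1.20, adjusted p 0.0689) and with GC classes centred was 1.91 (0.00128). Neither neuropilin gene had a called peak: Nrp1 had 3 peaks with values from -1.49 to 0.69 on the log2 scale and Nrp2 had 4 from -0.48 to 0.46. The strongest peak of the group, in Sema3a intron 2 of 4 (chr5:13289614-13290077), had 60.6 ± 4.53 normalized reads with DMSO and 41.8 ± 4.33 with dTAG13; by the authors' deposited table its adjusted p, 0.196, missed the threshold.

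Plexins had 1 lower peak among 41 and a median log2 fold change of 0.02, the highest of the 7 families. The peak in intron 13 of 31 of Plxna2 (chr1:194782506-194782775) had 28, 26 and 32 reads with DMSO and 14, 2 and 4 with dTAG13. The dTAG13 library a stands above the other dTAG13 libraries here: with all libraries the authors' deposited table gave -1.61 (log2, SE 0.53, adjusted p 0.0466), and without dTAG13 library a the value was -2.63, the single fit of 6 in which the call held. It also ended with the median of all peaks set to 0 (adjusted p 0.0798) and with GC classes centred (0.184). All 5 peaks assigned to Plxna1, a co-receptor for class 3 semaphorins, had positive values, with a median of 1.31, and none was called. In the dTAG13 peak list alone were 4 of the 5, beside 11.8% of all peaks. With the median of all peaks set to 0, plexins had 0 lower and 4 higher peaks, and with GC classes centred 0 and 2. Over all peaks the same settings gave 2056 lower and 1958 higher, and 1379 and 2258. The strongest plexin peak, a Plxnb2 promoter (chr15:89173940-89174198), had 32.1 ± 8.85 and 36.6 ± 9.49 normalized reads.

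Netrins had 1 lower peak among 28, with a median of -0.34 on the log2 scale. It lay in intron 2 of 6 of Ntn1 (chr11:68373278-68373636), the gene of the secreted cue netrin-1, and had 30, 33 and 28 reads with DMSO and 3, 2 and 2 with dTAG13. The libraries of each group lay close together, at 24.4 ± 1.89 against 2.71 ± 0.366 normalized reads. The authors' deposited table gave it -3.16 on the log2 scale (SE 0.67), a fold of 8.93, with an adjusted p of 6.52e-04. No other Ntn1 peak was called: the strongest (chr11:68390920-68391427), also intronic, had 50.5 ± 3.05 normalized reads with DMSO and 66.7 ± 1.0 with dTAG13, and both promoter peaks had positive values. All 6 peaks of Ntng2, which encodes a membrane-anchored netrin, were negative, from -1.36 to -0.37, and none was called. All 6 were in the DMSO peak list alone, beside 40.1% of all peaks.

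Set by role, ligands had 13 lower and 1 higher call in 214 peaks (6.13% lower) and receptors 8 lower and 1 higher in 142 (5.63% lower). Relative to the median of all peaks, class 3 semaphorins with neuropilins (0.05) and plexins (0.20) lay above 0 and the other 5 families below it, from -0.29 for ephrins to -0.03 for slits and Robo receptors. With GC classes centred, slits and Robo receptors turned to 0.13 and class 3 semaphorins to -0.06. The 125 peaks of the 12 genes with a lower call that were not called themselves had a median of -0.40, and the 213 peaks of the 54 genes without any call had -0.14. The 12 genes were chosen by their calls, so the first value is a description.

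The lower calls lay mainly in introns. Introns held 13 of the 21, or 9.70% of the 134 intronic members with an adjusted p, where 5.60% of all intronic peaks were lower. Promoters held 3 of 132 (2.27%, all promoter peaks 1.59%) and intergenic sites 5 of 87 (5.75%, all intergenic peaks 5.11%). Medians on the log2 scale were -0.60 for intronic, -0.35 for intergenic and 0.08 for promoter members, beside -0.44, -0.38 and 0.00 for all peaks of these places. Promoter peaks were 36.3% of members and 39.1% of all peaks, and peaks present in both groups' lists were 44.2% and 48.2%.

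**Figure D4:**
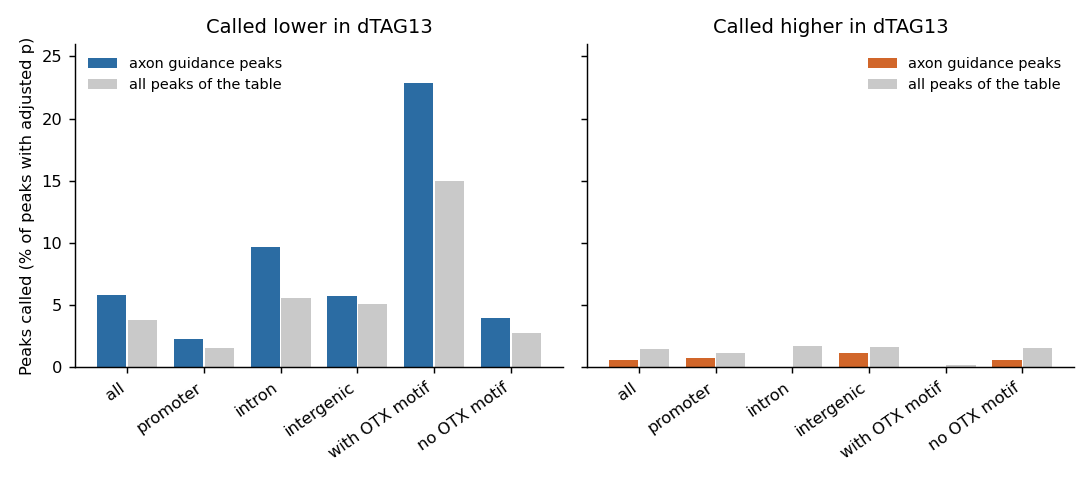
Share of peaks called lower (left, blue) and higher (right, orange) in dTAG13 among axon guidance peaks, beside all peaks of the table (grey), by place and by presence of the OTX letters within 100 bases of the midpoint. The tallest pair is that of peaks with the letters, 22.9% of members and 15% of all peaks called lower; no member with them was called higher.

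The OTX letters GGATTA, searched on both strands within 100 bases of the midpoint, were present in 35 members (9.62%) and in 8.85% of all peaks. Over the whole peak the shares were 7.69% of members and 7.07% of all peaks. Within 50 bases the order turned, with 3.57% of members and 5.02% of all peaks. Among the 21 lower members 8 had them (38.1%, Wilson 95% interval 20.8 to 59.1), close to the 34.1% of all lower peaks in the table. These 8 were at Efna5 (2 peaks), Sema6a, Ntn1, Robo3, Slit1, Robo1 and Plxna2. Of the 35 members with the letters 8 (22.9%) were called lower, against 13 of 327 (3.98%) without them; over all peaks the shares were 15% and 2.73%. The reversed letters ATTAGG, of the same composition, were present in 4 of the 21 (19.0%, all lower peaks 16.1%, all peaks 7.09%), and can share bases with GGATTA as at Efna5. The control letters were thus also more frequent in lower peaks than in all peaks. SOX letters (ACAATG or ACAAAG) were in 8 of the 21 and GATA letters (AGATAA) in 6, beside 42.4% and 30.2% of all lower peaks and 24.6% and 15.7% of all peaks. The letters searched for FOX (TGTTTAC), TEAD, AP1 and T-box (AGGTGTGA) were in 0 of the 21; they are in 8.85%, 9.69%, 6.06% and 1.56% of all lower peaks and in 5.34%, 11.6%, 6.07% and 1.71% of all peaks. A match is a description of letters and not a bound site. Lower members had a median GC content of 49.6% and members not called 57.4%; the counts with GC classes centred are given above.

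The table also marks genes as lower or higher in expression, under labels whose source and cut-off are not given in the sources used here. There are 6 member genes marked down (Efna5, Epha7, Nrp2, Robo1, Sema5b and Sema6d) and 5 are marked up (Ntn1, Sema3a, Sema5a, Slit1 and Slit2). Of the 21 lower peaks, 10 were at genes marked down, 3 at genes marked up and 8 at unmarked genes. Lower peaks were 15.4% of the 65 tested members at genes marked down, where the share over all peaks of genes marked down was 9.65%. At genes marked up 3 of 42 members were lower (7.14%, all such peaks 2.73%). No member at a marked gene was called higher, where 0.754% of all peaks at genes marked down and 2.25% at genes marked up were.

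Just outside the threshold, with an adjusted p from 0.05 to 0.1, lay 19 members, 14 lower and 5 higher. Under 0.1 as a whole, 35 members were lower and 7 higher, beside 4342 and 1949 of all peaks. The 5 with the smallest p in the authors' deposited table were an intron 1 peak of Plxna2 (log2 fold change 1.45, adjusted p 0.0521), an intron 1 peak of Ephb2 (-2.15, 0.0566), a promoter peak of Sema4c (-0.90, 0.0584), an intron peak of Slit3 (-2.56, 0.0610) and an intron 1 peak of Efna5 (adjusted p 0.0613). The Efna5 peak had 9, 4 and 6 reads with DMSO and 0 in every dTAG13 library, with a DMSO mean 1.43-fold above the floor. The Plxna2 peak had 14, 6 and 10 reads with DMSO and 22, 13 and 21 with dTAG13, the reverse of the called Plxna2 peak. Just inside lay the third Sema6d peak and the Sema3e peak given above. Of the 5 higher ones, 2 were assigned to Plxna1 (3.01 and 3.77). The one at 3.77 is annotated in an intron of another gene, so its assignment to Plxna1 is by the authors' gene column.

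Other genes of the pathway, namely other receptors, co-receptors and cytoplasmic effectors, showed calls near the background. All 44 genes listed had peaks, 265 in all, of which 10 of 263 tested were lower (3.80%) and 4 higher (1.52%). Lower peaks were at Srgap1 and Dscam (2 each), Mical2, Mical3, Vav3, Rgs3, Flrt3 and Rgma. SRGAP1, the slit-Robo GTPase-activating protein, had an intron 1 peak with 32, 30 and 37 reads with DMSO and 8, 6 and 6 with dTAG13 (by the authors' deposited table -1.78 on the log2 scale, adjusted p 0.0107). DSCAM, a netrin receptor, had an intron 3 peak with 22, 19 and 16 reads against 2, 0 and 2. The higher peaks were at Vav2, Vav3, Trio and Fer, which encode guanine nucleotide exchange factors or, for Fer, a kinase. The Vav2 peak had 2, 12 and 2 reads with DMSO and 32, 14 and 18 with dTAG13 (log2 value of 2.54 by the authors' deposited table, adjusted p 0.00215), and the intronic Vav3 peak fell by 1.0 on the log2 scale while its intergenic peak rose by 3.39. No peak of Unc5a to Unc5d, Dcc or Neo1 was called.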

How the data were processed

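ATAC-seq was compared between 3 DMSO and 3 dTAG13 libraries. Per the submitters' processing notes, fastp, Bowtie2, MACS2, featureCounts, HOMER 4.11 and ChIPseeker were used, on mm10; duplicate handling and any shift of read ends are not given in the sources used here. Per the file headers, the authors deposited for each peak a mean signal (read counts normalized by size factors), a log2 fold change with its standard error, a score (their ratio), p-values and adjusted p-values, under the column names of DESeq2. These tests, adjusted by Benjamini-Hochberg over 69128 peaks, were used as deposited and are two-sided, since a table of counts per library was not used here; peak lists of each group give positions only. Reads per library were recovered from the means as described above, with the dispersion set by the deposited standard error and fitted means of at least 0.5, and were used for levels and for leaving out libraries. Lists were shared at an overlap of 1 base. Start sites came from GENCODE release 21. Named were all called peaks, the strongest peak of each family and up to 5 members just outside the threshold; others (the promoter and neighbouring peaks of called genes, and the genes without a call) were chosen after their values were seen. Members and lists were chosen with earlier results of these data known. Scripts were tested on simulated data (Python 3.11.15, numpy 2.4.6, pandas 2.3.3, scipy 1.17.1).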

Additional observations from a re-analysis of the deposited data

How the results depend on the processing

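Counts as deposited were 21 lower and 2 higher members. No called peak changed direction in the fits that left out a library. The other settings could not reverse a sign. They leave the log2 values as they are or shift them by less than the smallest called one, -1.22 at the third Sema6d peak. Higher members numbered 9 with the median of all peaks set to 0 (a shift of -0.18), 1 with the median of peaks in both lists set to 0 (a shift of 0.09) and 7 with each of 10 GC classes set to 0 (shifts from -0.91 to 0.04); lower members numbered 17, 28 and 13. Over all peaks those settings gave 1958, 790 and 2258 higher and 2056, 3159 and 1379 lower. At an adjusted p under 0.01 members were 10 lower and 1 higher (all peaks 923 and 284). Under 0.1 they were 35 and 7 (all peaks 4342 and 1949). The other alternatives (no filter, a mean normalized count of at least 5, a log2 fold change of 1 or more either way, the nearest GENCODE start, and, chosen after seeing the data, leaving out the 8 peaks matched by name only) gave 18 to 21 lower and 2 higher, though with the mean of at least 5 the weak Epha1 peak was no longer tested and a plexin peak was called higher in its place. The OTX share was 7.69% over the whole peak (all peaks 7.07%) and 3.57% within 50 bases (5.02%). The promoter share was 27.2% with a start site within 1000 bases (31.8%). The share in both lists was 35.7% at an overlap of 50% of both peaks (41.0%). Narrower definitions lower each share by construction. Within 50 bases the OTX share moved from above to below that of all peaks, whose cause was not tested. Setting the median of all peaks to 0 ended the calls at Sema5b (-1.46), Efna5 (second intron 1 peak, -3.51), Plxna2 (-1.43) and Sema6d (the third peak, -1.03), whose log2 values moved by that shift alone. Centring GC classes ended these 4 (-1.31, -3.08, -1.16 and -0.60), the upstream Sema6a peak (-0.57), Sema3a (-4.19), and the intron 1 (-1.09) and weakest (-3.92) Robo1 peaks, and centring on both lists ended Sema3e (1.20).

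Leaving out each library in turn, with the dispersion held and at the largest p that the deposited adjustment let pass (0.00263), left 14 to 18 lower and 1 to 3 higher members; the method was chosen after seeing the data, and in a group of 2 the spread is assumed to be that of all libraries. In all 6 such fits 12 of the 23 peaks were past that p. Without dTAG13 library a 10 calls ended (Sema3a, Slit1, Sema3b, Sema5b, Sema3e, the intron 1 and weakest Robo1 peaks, the third Ephb2, the second intron 1 Efna5 and the third Sema6d peak). Without dTAG13 library b 9 ended (Sema3a, Slit1, Sema3b, Sema5b, Sema3e, Plxna2, the weakest Robo1, the third Ephb2 and the second intron 1 Efna5 peak), and without c 6 (Slit1, Sema5b, Sema3e, Plxna2, the weakest Robo1 and the third Sema6d peak). Plxna2 and the third Sema6d peak lost the call on leaving out DMSO library a, b or c; in addition leaving out DMSO library a ended Slit1, the weakest Robo1 and the second intron 1 Efna5 peak, b the intron 1 Robo1 peak and Sema3e, and c Sema5b, Sema3e and the second intron 1 Efna5 peak. Where 1 library held the remaining dTAG13 reads, its removal moved the fitted value, to -6.25 for the intergenic Efna5 peak and -5.98 for the intron 1 Ephb2 peak without dTAG13 library a, and to -5.92 for Sema3b and -5.63 for the second intron 1 Efna5 peak without dTAG13 library c. No paired analysis was possible because the table gives no column per library and the recovered libraries carry no replicate number.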
